A study of Arabidopsis thaliana with 33 samples.

Results

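FSD1 (AT4G25100), COPT2 (AT3G46900) and FER1 (AT5G01600) are 3 genes of copper and iron status in Arabidopsis thaliana, and they were followed across all 12 groups of the series. They were chosen by name, as an iron superoxide dismutase, a copper importer and a ferritin, and each has 1 probe set among the 22746 in the table. The platform annotation used here names none of the 3 probe sets, and their genes come from the study's own tables of changed genes. Roots and shoots of 10 d seedlings of ecotype Wassilewskija (WS), grown in constant light on vertical nutrient plates and exposed for 24 h to 1 of 6 atmospheres, were profiled on Affymetrix ATH1 arrays. The treated groups were 50 kPa with 10 kPa of oxygen, 25 kPa with 5 kPa of oxygen, the same pressures with oxygen kept at 21 kPa (50 kPa/NormOx and 25 kPa/NormOx), and 97 kPa/HypOx, which is normal pressure with 5.1 kPa of oxygen. The control was 97 kPa with 21 kPa of oxygen, and carbon dioxide was held constant in all 6. Each tissue had 3 arrays per group at 50 and 25 kPa and in the 97 kPa control. There were 2 root and 4 shoot arrays at 50 kPa/NormOx, 1 root and 3 shoot arrays at 25 kPa/NormOx, and 3 root and 2 shoot arrays at 97 kPa/HypOx. Each array held the pooled seedlings of 1 plate. By the study's methods, 1 tube of seedlings was taken per replicate chamber, with 3 chambers for an atmosphere, so p-values measure the spread between such chambers. The 4 shoot arrays at 50 kPa/NormOx outnumber these chambers, and which of them share one is not given in the sources used here.

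Copper and iron are cofactors of proteins that handle oxygen and electrons, and plants adjust which protein does a task to the metal at hand. When copper is short, the regulator SPL7 turns on copper uptake through importers such as COPT2, together with FSD1 and the microRNA miR398. FSD1 is an iron enzyme that can take over the removal of superoxide, while miR398 lowers the copper enzymes CSD1 and CSD2 and their chaperone CCS. With ample copper the balance turns to the copper enzymes. FER1 is a plastid ferritin, a shell of protein that stores iron out of reach of harmful reactions with oxygen, and its transcript is known to rise with excess iron and oxidative stress. All of this is background and not a result of these arrays.

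Values are log2 units after Robust Multi-chip Average (RMA) normalization, so a step of 1 is a 2-fold difference. They carry no detection calls. Roots and shoots were normalized separately, and their levels are not set against each other. A gene was called changed at an unadjusted p under 0.01 in limma with at least a 2-fold difference, and the Benjamini-Hochberg adjusted p over all 22645 probe sets tested is given beside it. One array stood apart in each tissue. Root 97 kPa replicate 1 correlated with its tissue's arrays at r = 0.884 on average, while the 14 others averaged 0.966 to 0.980. Shoot 50 kPa/NormOx replicate 1 averaged 0.899 and the 17 others 0.974 to 0.983. Of 21 green tissue markers 5 have a named probe set, and their mean was 6.62 to 8.18 in root arrays and 11.82 to 12.21 in shoot arrays. With bulk tissue, fewer cells of a type and less RNA per cell cannot be told apart.

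In roots the group means of FSD1 and COPT2 were lowest at 25 kPa, and FER1 differed from 97 kPa by at most 0.21 log2 units. In shoots FER1 was called higher in the 3 atmospheres with low oxygen. With normal oxygen its mean was also above that at 97 kPa, by 0.67 at 50 kPa/NormOx and 0.39 at 25 kPa/NormOx, and neither was called. FSD1 and COPT2 were not called in any shoot atmosphere. Of 30 comparisons of a member with 97 kPa, 4 were called: COPT2 in roots at 25 kPa, and FER1 in shoots at 50 and 25 kPa and at 97 kPa/HypOx. By limma, 9 of the 30 had an unadjusted p under 0.05 and 0 had an adjusted p under 0.05, the lowest being 0.104.

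**Figure D1:**
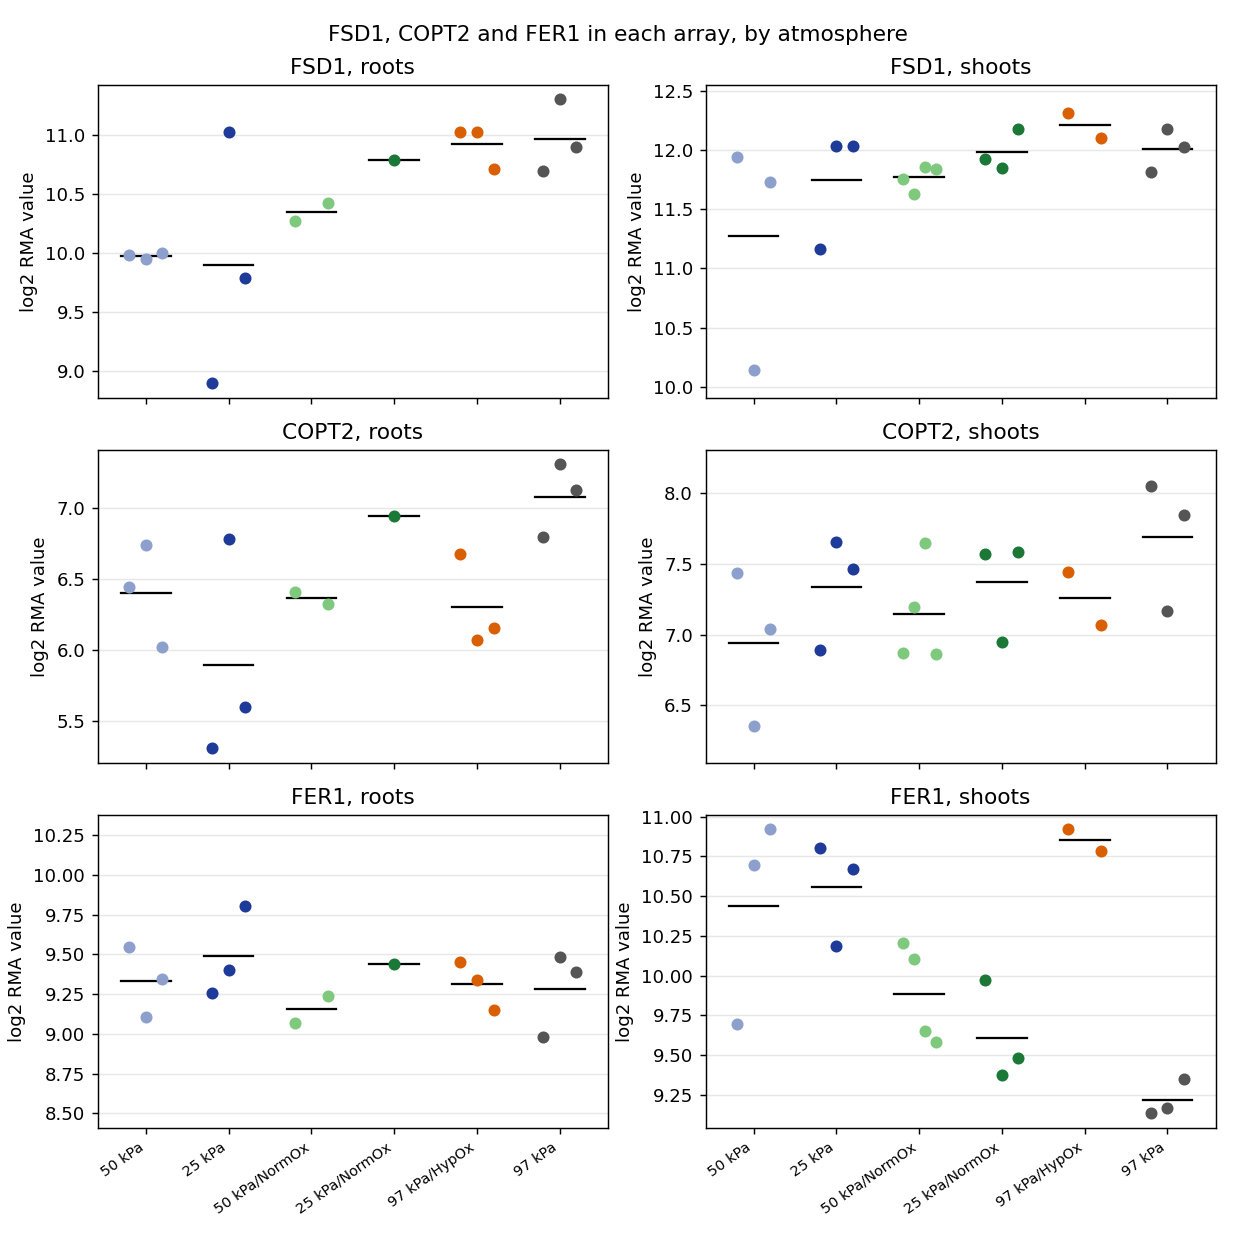
Log2 RMA value (vertical axis) of FSD1, COPT2 and FER1 in each root array (left) and shoot array (right) by atmosphere, with 1 point per array and a bar at the group mean. Within a row both panels span the same number of log2 units. In shoots all FER1 points of the 5 treated atmospheres lie above the 97 kPa points, which sit between 9.13 and 9.35, and in roots the FSD1 points at 25 kPa spread from 8.90 to 11.02.

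FSD1, the iron superoxide dismutase, had values of 9.98, 9.95 and 10.00 in roots at 50 kPa and of 8.90, 11.02 and 9.79 at 25 kPa. At 50 kPa/NormOx it had 10.27 and 10.43, at 25 kPa/NormOx 10.79 in the single array, at 97 kPa/HypOx 11.03, 11.03 and 10.71, and at 97 kPa 10.70, 11.30 and 10.90. All 50 kPa and 50 kPa/NormOx arrays lay below the 97 kPa arrays, while at 25 kPa replicate 2 lay inside the control range and replicates 1 and 3 below it. Against 97 kPa the log2 difference was -0.99 (SE 0.39) at 50 kPa and -1.06 (SE 0.39) at 25 kPa, and neither was called. The unadjusted p was 0.0267 at 50 kPa and 0.0188 at 25 kPa, with adjusted p = 0.420 and 0.292 from limma. The difference was -0.62 at 50 kPa/NormOx, -0.18 at 25 kPa/NormOx and -0.045 at 97 kPa/HypOx. Without root 25 kPa replicate 2 the difference at 25 kPa was -1.62 and was called (unadjusted p 4.84e-05), and without replicate 1 it was -0.56.

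The direct difference of 25 kPa minus 97 kPa/HypOx, at nearly equal oxygen, was -1.02 (95% confidence interval -1.87 to -0.17) at an unadjusted p of 0.0232 and an adjusted p of 0.999. The difference of 25 kPa minus 25 kPa/NormOx was -0.88 (-2.09 to 0.32) at an unadjusted p of 0.136, where 25 kPa/NormOx is 1 array that is assumed to vary like the other groups. Without root 25 kPa replicate 2 both passed the threshold, at -1.58 against 97 kPa/HypOx and -1.44 against 25 kPa/NormOx. With each array left out in turn, they ran from -1.58 to -0.51 and from -1.44 to -0.38.

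COPT2, which carries copper into the cell from outside, had values of 6.45, 6.74 and 6.02 in roots at 50 kPa and of 5.30, 6.78 and 5.60 at 25 kPa. At 50 kPa/NormOx it had 6.41 and 6.32, at 25 kPa/NormOx 6.95, at 97 kPa/HypOx 6.68, 6.07 and 6.15, and at 97 kPa 6.80, 7.31 and 7.13. Every array at 50 kPa, 25 kPa, 50 kPa/NormOx and 97 kPa/HypOx lay below the 97 kPa arrays, although 25 kPa replicate 2 came close to the lowest of these. COPT2 fell at 25 kPa, by 2.27-fold, with a log2 difference of -1.18 (SE 0.33) at an unadjusted p of 0.00424 and an adjusted p of 0.184. The log2 difference was -0.67 at 50 kPa, -0.71 at 50 kPa/NormOx, -0.13 at 25 kPa/NormOx and -0.78 at 97 kPa/HypOx, and none of these was called. The difference of 25 kPa minus 97 kPa/HypOx was -0.41 (95% confidence interval -1.14 to 0.33) and that of 25 kPa minus 25 kPa/NormOx was -1.06 (-2.09 to -0.022), neither called. Without root 25 kPa replicate 2 the second was -1.50 and called, and with each array left out in turn it ran from -1.50 to -0.76. The call at 25 kPa was lost without root 25 kPa replicate 1 (-0.89) or replicate 3 (-1.03) and without root 97 kPa replicate 2 (-1.07) or replicate 3 (-1.16), and the difference was -1.63 without root 25 kPa replicate 2. Without root 97 kPa replicate 1, the array that stands apart, it was -1.33 and FSD1 was at -1.20.

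For scale, the share of all probe sets called in roots, in either direction, was 0.397% at 50 kPa, 0.905% at 25 kPa, 0.0618% at 50 kPa/NormOx, 0.0397% at 25 kPa/NormOx and 0.627% at 97 kPa/HypOx. COPT2 was the 1 called member of 3 at 25 kPa and no member was called in the other 4. The share of all probe sets with every treated root array below every 97 kPa array was 3.25% at 50 kPa, where 2 of 3 members were so placed, 6.92% at 25 kPa with 1 of 3, 7.83% at 50 kPa/NormOx with 2 of 3, and 4.42% at 97 kPa/HypOx with 1 of 3. The 3 members are named through the study's tables of genes called on these same arrays. Shares of all probe sets beside them are therefore a scale and no test of the members. Green tissue markers also differed in roots. Their mean was 7.71 to 8.18 in root arrays at 25 kPa against 6.62 to 7.56 at 97 kPa, and 2 of the 5 rose there, PSAD1 (1.12) and PSBO1 (1.10). At 97 kPa/HypOx 1 of the 5 rose (PSBO1, 1.08), and in the other 3 atmospheres none passed. PSAD1 and PSBO1 are likewise named only through the study's tables. The 3 markers that the platform annotation names were all positive in roots at 25 kPa, with a median of 0.69. None of these 3 was called in roots. The part of green tissue in the root values was not tested.

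**Figure D2:**
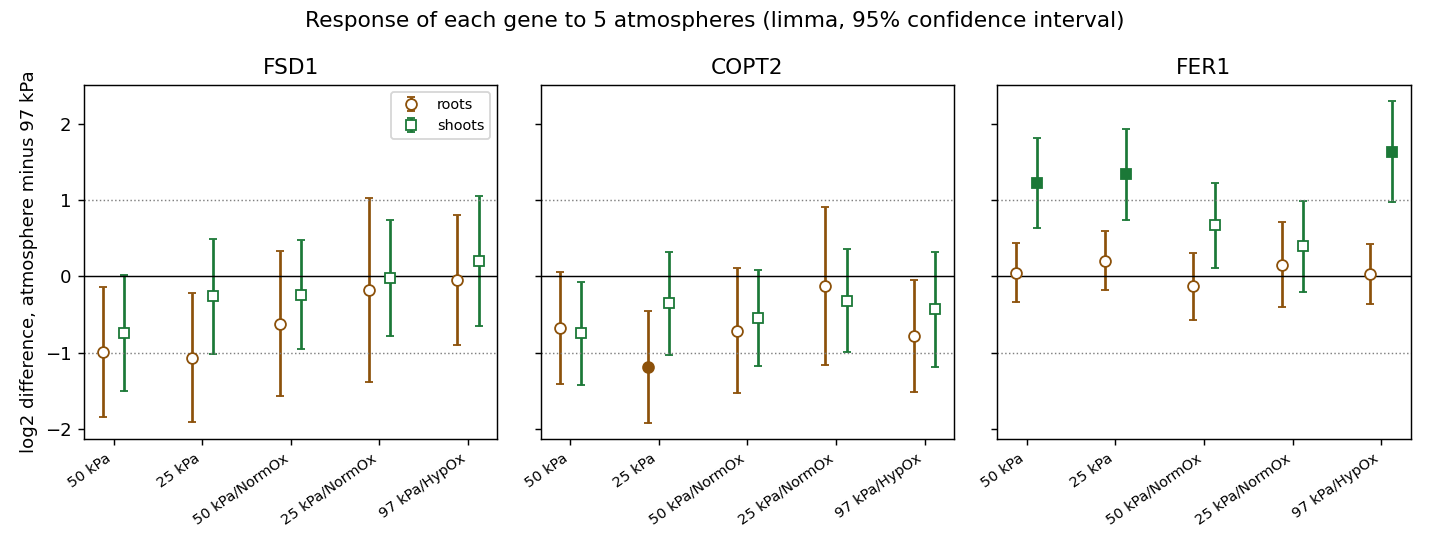
Log2 difference of each atmosphere from 97 kPa (vertical axis) with its 95% confidence interval from limma, for roots (circles) and shoots (squares). Filled symbols are called changed and dotted lines mark 2-fold. FER1 in shoots is at 1.22 at 50 kPa, 1.34 at 25 kPa and 1.63 at 97 kPa/HypOx, while the 5 FER1 differences in roots lie between -0.13 and 0.21.

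FER1, the plastid ferritin, gave the lowest p-values of the 3 genes, in shoots. Its values there were 9.70, 10.69 and 10.92 at 50 kPa, and 10.80, 10.19 and 10.67 at 25 kPa. With normal oxygen they were 10.20, 10.10, 9.65 and 9.58 at 50 kPa/NormOx, and 9.97, 9.38 and 9.48 at 25 kPa/NormOx. At 97 kPa/HypOx they were 10.92 and 10.78, and at 97 kPa 9.13, 9.16 and 9.35. All 15 treated shoot arrays lay above the 3 control arrays, by the least at 25 kPa/NormOx, where replicate 2 was close to the highest control. The group averaged 10.85 ± 0.099 (SD, n = 2) at 97 kPa/HypOx and 10.55 ± 0.32 (SD, n = 3) at 25 kPa, against 9.22 ± 0.12 (SD, n = 3) at 97 kPa. The share of all probe sets with every treated shoot array above every control array was 8.6% at 50 kPa, 7.3% at 25 kPa, 2.24% at 50 kPa/NormOx, 3.83% at 25 kPa/NormOx and 10.6% at 97 kPa/HypOx, and FER1 was the 1 member of 3 so placed in each. As in roots, these shares are a scale and no test of FER1, which is named through the study's tables.

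FER1 rose 2.33-fold in shoots at 50 kPa (log2 difference 1.22, SE 0.28, adjusted p = 0.585 from limma), 2.53-fold at 25 kPa (1.34, SE 0.28, adjusted p = 0.104) and 3.11-fold at 97 kPa/HypOx (1.63, SE 0.31, adjusted p = 0.163). The unadjusted p was 0.000565 at 50 kPa, 0.000249 at 25 kPa and 0.000108 at 97 kPa/HypOx. With normal oxygen the difference was 0.67 (95% confidence interval 0.12 to 1.23) at 50 kPa/NormOx and 0.39 (-0.20 to 0.99) at 25 kPa/NormOx, and neither was called. The share of all probe sets called in shoots was 0.106% at 50 kPa, 0.283% at 25 kPa, 0.0486% at 50 kPa/NormOx, 0.053% at 25 kPa/NormOx and 0.185% at 97 kPa/HypOx. The call at 50 kPa was lost without shoot 50 kPa replicate 3, at 0.98, and the calls at 25 kPa and 97 kPa/HypOx held with any 1 array left out. The array that stands apart in shoots belongs to 50 kPa/NormOx, where the FER1 difference was 0.56 without it.

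In the direct comparisons in shoots, all FER1 values at 25 kPa exceeded all those at 25 kPa/NormOx, with a log2 difference of 0.94 (SE 0.28, unadjusted p 0.00411, adjusted p = 0.371 from limma), which is under the 2-fold needed for a call. It was called, at 1.13, without shoot 25 kPa replicate 2 and likewise without shoot 25 kPa/NormOx replicate 1. With each array left out in turn it ran from 0.82 to 1.13. In that comparison 0.132% of all probe sets were called and 6.69% had every 25 kPa array above every 25 kPa/NormOx array. At 50 kPa the gap to 50 kPa/NormOx was 0.55 (95% confidence interval -0.0046 to 1.10) and the groups overlapped through 50 kPa replicate 1. With oxygen at 5 kPa and 5.1 kPa, 25 kPa minus 97 kPa/HypOx was -0.30 (-0.96 to 0.37). The moderated F test over all shoot groups gave FER1 an adjusted p of 0.229 in limma.

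A root marker was also higher in treated shoots than at 97 kPa. PYK10, a beta-glucosidase typical of roots, had shoot means of 9.27 at 50 kPa, 8.998 at 25 kPa and 9.75 at 97 kPa/HypOx, against 8.23 at 97 kPa, and rose at 50 kPa (1.04) and at 97 kPa/HypOx (1.52). With normal oxygen its means were 8.68 at 50 kPa/NormOx and 8.89 at 25 kPa/NormOx. The latter was close to its mean at 25 kPa, while FER1 averaged 9.61 at 25 kPa/NormOx and 10.55 at 25 kPa. EXPA7, an expansin of root hairs and the other of the 2 root markers of 10 with a named probe set, averaged 4.38 at 50 kPa, 5.02 at 25 kPa and 4.71 at 97 kPa/HypOx, against 4.78 at 97 kPa, and was not called in any atmosphere. Their mean was 6.51 to 7.02 in shoot arrays at 50 kPa, 6.69 to 7.23 at 25 kPa, 6.55 to 8.01 at 50 kPa/NormOx, 6.39 to 7.27 at 25 kPa/NormOx and 7.12 to 7.33 at 97 kPa/HypOx, against 6.15 to 6.74 at 97 kPa. In roots the same mean was 9.37 to 10.40. The part of root tissue in the FER1 values was not tested.

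In roots FER1 had 9.55, 9.11 and 9.34 at 50 kPa, 9.26, 9.41 and 9.81 at 25 kPa, 9.07 and 9.24 at 50 kPa/NormOx, 9.44 at 25 kPa/NormOx, and 9.45, 9.34 and 9.15 at 97 kPa/HypOx, against 8.98, 9.48 and 9.39 at 97 kPa. All groups overlapped the control, and the 95% confidence interval at 25 kPa was -0.18 to 0.60. The root response minus the shoot response was tested in 1 fit of all 33 arrays. For FER1 it was -1.17 (SE 0.35) at 50 kPa, -1.13 (SE 0.35) at 25 kPa and -1.61 (SE 0.37) at 97 kPa/HypOx, all called, with adjusted p = 0.368, 0.275 and 0.162 from limma. In these contrasts 0.344%, 0.817% and 0.433% of all probe sets were called, and FER1 was the 1 called member of 3 in each. For the root marker PYK10 the same term was -0.97 at 50 kPa and -0.59 at 25 kPa, neither called, and -1.28 at 97 kPa/HypOx, which was called. For the other root marker, EXPA7, it was 0.46 at 50 kPa, -0.78 at 25 kPa and -0.36 at 97 kPa/HypOx, none called. The part of root tissue in the FER1 terms was not tested. At 25 kPa the FSD1 difference between tissues was -0.80 (95% confidence interval -1.93 to 0.33) and that of COPT2 was -0.83 (-1.82 to 0.15), neither called. Without root 25 kPa replicate 2 they were -1.36 and -1.28, both called, and neither was called without any other array. With each array left out in turn they ran from -1.36 to -0.30 and from -1.28 to -0.54.

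In shoots FSD1 had 11.94, 10.14 and 11.73 at 50 kPa, 11.16, 12.04 and 12.04 at 25 kPa, 11.76, 11.63, 11.86 and 11.84 at 50 kPa/NormOx, 11.93, 11.85 and 12.18 at 25 kPa/NormOx, and 12.32 and 12.10 at 97 kPa/HypOx, against 11.82, 12.18 and 12.03 at 97 kPa. Replicate 2 at 50 kPa and replicate 1 at 25 kPa lay below all other shoot arrays, and every group overlapped the control. The log2 difference was -0.74 at 50 kPa and between -0.26 and 0.20 in the other 4 atmospheres. Without shoot 50 kPa replicate 2 it was -0.17 at 50 kPa, and without replicate 1 it was -1.07, which is called (unadjusted p 0.00982).

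COPT2 in shoots had 7.44, 6.35 and 7.04 at 50 kPa, 6.89, 7.66 and 7.46 at 25 kPa, 6.87, 7.20, 7.65 and 6.87 at 50 kPa/NormOx, 7.57, 6.95 and 7.58 at 25 kPa/NormOx, and 7.45 and 7.07 at 97 kPa/HypOx, against 8.05, 7.17 and 7.85 at 97 kPa. Every group overlapped the control through 97 kPa replicate 2. All 5 differences were negative, from -0.75 at 50 kPa to -0.32 at 25 kPa/NormOx, and none was called. The 50 kPa difference was -1.01 and called without shoot 97 kPa replicate 2 (unadjusted p 0.00923), and -0.45 without shoot 50 kPa replicate 2.

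By group mean, FSD1 in roots was highest at 97 kPa, followed by 97 kPa/HypOx, then 25 kPa/NormOx, then 50 kPa/NormOx, then 50 kPa and last 25 kPa. In shoots its order was 97 kPa/HypOx, then 97 kPa, then 25 kPa/NormOx, then 50 kPa/NormOx, then 25 kPa and last 50 kPa. COPT2 in roots was highest at 97 kPa, then at 25 kPa/NormOx, 50 kPa, then 50 kPa/NormOx, then 97 kPa/HypOx and last 25 kPa, and in shoots at 97 kPa, then 25 kPa/NormOx, then 25 kPa, then 97 kPa/HypOx, then 50 kPa/NormOx and last 50 kPa. FER1 in roots was highest at 25 kPa, then 25 kPa/NormOx, then 50 kPa, then 97 kPa/HypOx, then 97 kPa and last 50 kPa/NormOx, and in shoots at 97 kPa/HypOx, then 25 kPa, then 50 kPa, then 50 kPa/NormOx, then 25 kPa/NormOx and last 97 kPa. None of the 30 neighbouring pairs in these orders had an unadjusted p under 0.05. The lowest was 0.0517, for FER1 in shoots between 50 kPa and 50 kPa/NormOx, with an adjusted p of 0.604 from limma.

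In roots at 50 and 25 kPa the copper enzymes were higher, and FSD1 and COPT2 lower, than at 97 kPa. FSD1 was at -0.045 at 97 kPa/HypOx and -0.18 in the single 25 kPa/NormOx array. There CSD1 was at 0.68 and 0.55, and CSD2 at 0.59 and 0.41. CSD1, the cytosolic copper/zinc superoxide dismutase, rose at 50 kPa (1.06, SE 0.28) and at 25 kPa (1.15, SE 0.28). CSD2, the chloroplast enzyme, rose at 50 kPa (1.001, SE 0.20), and CCS, the chaperone that loads both with copper, rose at 25 kPa (1.10, SE 0.24). The adjusted p from limma was 0.294 and 0.125 for CSD1, 0.225 for CSD2 and 0.0950 for CCS. YSL2, a transporter of metal bound to nicotianamine, fell at 50 kPa (-1.06, SE 0.20, adjusted p = 0.225) and was at -0.96 at 25 kPa. Each of these calls was lost with 1 array left out, with values of 0.92 for CSD1 at 50 kPa without root 97 kPa replicate 2, 0.84 for CSD1 and 0.92 for CCS at 25 kPa without root 25 kPa replicate 1, 0.86 for CSD2 at 50 kPa without root 97 kPa replicate 2 (0.96 without root 50 kPa replicate 3), and -0.97 for YSL2 at 50 kPa without root 97 kPa replicate 3 (-0.996 without root 50 kPa replicate 3).

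ARPN, a plantacyanin or small blue copper protein, rose in roots at 50 kPa (1.15), 25 kPa (2.08), 50 kPa/NormOx (1.38) and 97 kPa/HypOx (1.51), and in shoots at 25 kPa (1.09). The root difference at 25 kPa had an adjusted p of 0.0226 from limma, the lowest of any copper gene listed. Its call at 50 kPa was lost without root 97 kPa replicate 1 (0.85) or replicate 2 (1.16) and without root 50 kPa replicate 1 (1.003) or replicate 2 (1.19), that at 50 kPa/NormOx without either of its arrays (1.34 and 1.41), and that in shoots in 8 of 18 such fits, down to 0.76. CSD1, CSD2, CCS and ARPN all had positive differences in all 5 root comparisons.

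Of 11 copper deficiency genes listed, 4 have a named probe set, the members FSD1 and COPT2 with YSL2 and CITF1. In roots none rose while 1 fell at 50 kPa (YSL2) and 1 at 25 kPa (COPT2). The median log2 difference of the 4 was -0.83 at 50 kPa and -1.01 at 25 kPa, beside 0.0069 and 0.0056 over all probe sets. FSD1 and COPT2 enter these medians themselves, so the medians are no separate measure beside the members. CITF1, a transcription factor of copper uptake, was the 1 of the 4 that the platform annotation itself names. It stayed between -0.20 and 0.085 in roots. Its root means were only 3.58 to 3.86, near the low end of the scale, where the lowest value of any probe set was 2.8798. Of 22 copper proteins and copper delivery genes, 6 have a named probe set, 3 rose at 50 kPa and 3 at 25 kPa in roots, and the medians were 0.88 and 1.13. Counting only the 4 that the platform annotation names, 1 and 2 rose, with medians of 0.73 and 1.21. The mitochondrial COX17-2, a copper chaperone of cytochrome c oxidase, ran from 0.53 to 1.33 in roots and the oxidase subunit COX5B-1 from -0.10 to 0.48, neither called. Of 8 superoxide dismutases 4 have a named probe set, and MSD2, a manganese enzyme, stayed between -0.10 and 0.023 in roots, with means of 3.57 to 3.69 that are as close to the low end. The study's tables list genes that the study itself called on these arrays, so members named only there are not independent evidence of a direction.

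In shoots the copper enzymes varied widely between arrays of the same atmosphere. CSD2 had values of 8.46, 11.31 and 10.04 at 50 kPa, 10.95, 8.09 and 9.87 at 25 kPa, and 7.59 and 9.38 at 97 kPa/HypOx, against 8.01, 7.71 and 8.28 at 97 kPa. Its largest spread within a group was 2.85 log2 units, at 25 kPa, and the spreads of CCS (2.876, at 25 kPa) and CSD1 (2.67, at 50 kPa) were alike. The differences at 50 kPa were not called: 1.94 (SE 0.81) for CSD2, 1.70 (SE 0.74) for CSD1 and 1.69 (SE 0.74) for CCS, with unadjusted p of 0.0313, 0.0378 and 0.0376. None of the 3 was called in any shoot comparison.

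Arrays low in FSD1 tended to be high in CSD1, CSD2 and CCS, also among arrays of the same atmosphere, least closely for CCS in roots. In roots at 25 kPa, replicate 1 had the lowest FSD1 (8.90) and the highest CSD2 (9.60) and CCS (8.25), and replicate 2 the highest FSD1 (11.02) and the lowest CSD2 (8.64) and CCS (7.52). In shoots at 50 kPa, replicate 2 had FSD1 at 10.14, COPT2 at 6.35, CSD2 at 11.31 and CCS at 8.77. Replicate 1 of that group had FSD1 at 11.94, COPT2 at 7.44, CSD2 at 8.46 and CCS at 6.00. In shoots at 25 kPa the arrays numbered 1 and 2 stood in the same order as in roots, with CSD2 at 10.95 and 8.09. The labels do not say whether equal numbers in roots and shoots mark the same seedlings.

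**Figure D3:**
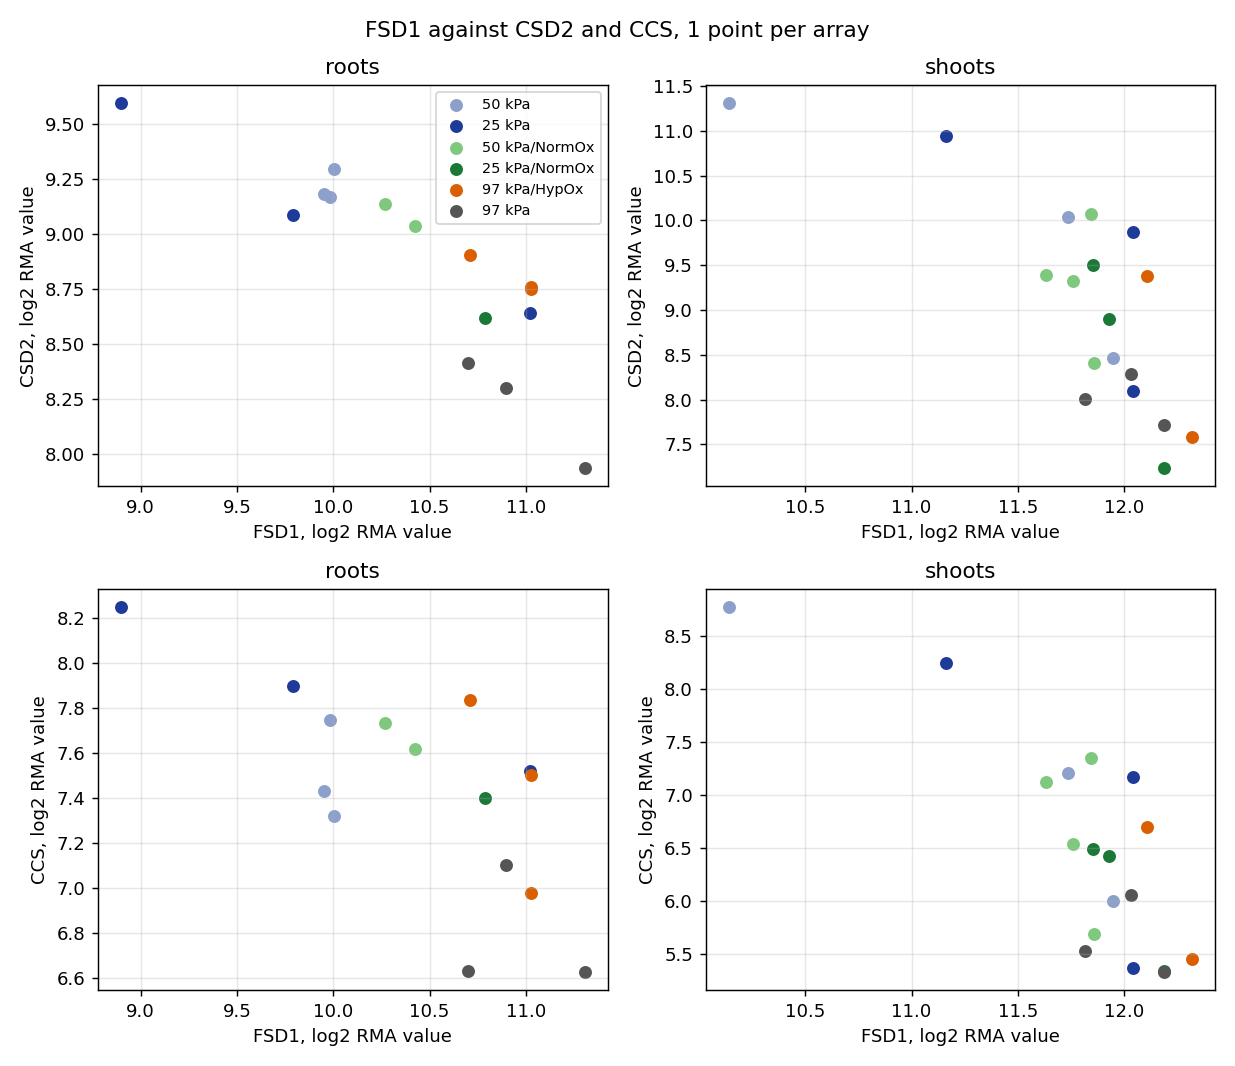
Log2 RMA values of CSD2 (top) and CCS (bottom) against FSD1 (horizontal axis) in roots (left) and shoots (right), 1 point per array, coloured by atmosphere. Points run downward to the right in every panel, and the highest CSD2 and CCS of each tissue belong to the arrays with the lowest FSD1, at 8.90 in roots and 10.14 in shoots.

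To take the atmospheres out, each value was set against its group mean and the deviations were correlated, with permutation within groups. The 12 pairs formed by the 3 members with each other and with CSD1, CSD2 and CCS were tested in both tissues, 24 in all, after the array values had been seen. In roots (14 arrays in 5 groups) FSD1 gave Pearson's r = -0.94 with CSD1 (permutation p = 0.00157, adjusted 0.0274) and Spearman's rho = -0.89 (permutation p = 0.00157, adjusted 0.0209). With CSD2 it gave r = -0.96 (permutation p = 0.00367, adjusted 0.0274) and rho = -0.91 (permutation p = 0.00428, adjusted 0.0286). Without the 2 arrays farthest from the median of FSD1, which are 25 kPa replicates 1 and 2, r was -0.85 with CSD1 and -0.90 with CSD2. FSD1 with CCS gave r = -0.63 (permutation p = 0.0400, adjusted 0.0874) and rho = -0.62 (permutation p = 0.0729, adjusted 0.175), and r = -0.41 without these arrays. COPT2 in roots gave r = -0.83 with CSD2 (permutation p = 0.0161, adjusted 0.0523) and rho = -0.69 (permutation p = 0.0284, adjusted 0.0757), and r = -0.54 without the same 2 arrays. With CSD1 it gave r = -0.72 (permutation p = 0.0984, adjusted 0.169) and rho = -0.49 (permutation p = 0.184, adjusted 0.273), and r = -0.23 without them. With CCS it gave r = -0.30 (permutation p = 0.470, adjusted 0.564) and rho = -0.10 (permutation p = 0.772, adjusted 0.806), and r turned to 0.23 without them.

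In shoots (18 arrays in 6 groups) COPT2 gave r = -0.74 with CSD1 (permutation p = 0.00567, adjusted 0.0274) and rho = -0.79 (permutation p = 0.00174, adjusted 0.0209), and r = -0.82 without the 2 farthest arrays, 50 kPa replicate 2 and 97 kPa replicate 2. With CSD2 it gave r = -0.73 (permutation p = 0.00516, adjusted 0.0274) and rho = -0.71 (permutation p = 0.00630, adjusted 0.0302), and with CCS r = -0.71 (permutation p = 0.00842, adjusted 0.0337) and rho = -0.69 (permutation p = 0.0101, adjusted 0.0396). Without those arrays r was -0.79 and -0.76. FSD1 in shoots gave r = -0.76 with CCS (permutation p = 0.00570, adjusted 0.0274) and rho = -0.74 (permutation p = 0.00476, adjusted 0.0286), and r = -0.61 without 25 kPa replicate 1 and 50 kPa replicate 2. FSD1 gave r = -0.68 with CSD1 (permutation p = 0.0362, adjusted 0.0869) and rho = -0.71 (permutation p = 0.0116, adjusted 0.0396), and r = -0.71 with CSD2 (permutation p = 0.0174, adjusted 0.0523) and rho = -0.68 (permutation p = 0.0248, adjusted 0.0743). The correlation of FSD1 with COPT2 was positive, with r = 0.83 in roots (permutation p = 0.0254, adjusted 0.0678) and 0.61 in shoots (permutation p = 0.0537, adjusted 0.107), and rho = 0.61 (permutation p = 0.0969, adjusted 0.212) and 0.46 (permutation p = 0.132, adjusted 0.243). These fell to 0.46 and 0.35 without the 2 farthest arrays, so this relation rests largely on them. FER1 gave no adjusted p under 0.05 with any of the 5 other genes in either tissue, and its r with CSD1 was -0.38 in roots and 0.63 in shoots, where the permutation p was 0.399 and 0.0613, with rho = -0.37 and 0.47 (permutation p = 0.342 and 0.149).

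Across all 33 arrays, after subtracting each tissue's mean, the 5 named probe sets most like each member among the other 13627 with 1 named gene were listed by Pearson's r, given as a description with no test. The arrays share tissues and groups, and so do their values. For FSD1 they were COPT2 (0.71), YSL2 (0.64), scpl29, a serine carboxypeptidase-like protein (0.59), WNK9, a protein kinase (0.55), and AT5G51950 (0.55). For COPT2 they were YSL2 (0.74), FSD1 (0.71), scpl29 (0.64), AT4G23590 (0.62) and AT5G09890 (0.62). FSD1 and COPT2 were in each other's list, and YSL2 was in both. For FER1 they were AT3G08610 (0.74), the cytochrome c gene CYTC-1 (0.72), the calmodulin-like CML41 (0.72), PYK10 (0.72), the root marker named above, and AT4G37830 (0.71). Without the 2 arrays that stand apart, COPT2 stayed first for FSD1 (0.71) and YSL2 first for COPT2 (0.78), with FSD1 second. Most other ranks fell. For COPT2, scpl29 came to rank 14, AT4G23590 to 7 and AT5G09890 to 15, and for FSD1, WNK9 came to 5 and AT5G51950 to 7. For FER1, CML41 kept rank 3 and AT3G08610 came to 4, while PYK10 came to 10, CYTC-1 to 11 and AT4G37830 to 12. Over the 12 group means the r of FSD1 with COPT2 was 0.70, at which COPT2 ranked 171.

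FER4, IREG2 and FIT were called in roots and in no shoot comparison. Each is named only through the study's tables of genes called on these same arrays. FER4, a second ferritin, fell in roots at 25 kPa (-1.12, SE 0.33, adjusted p = 0.206 from limma) and at 97 kPa/HypOx (-1.05, SE 0.33, adjusted p = 0.304). Its values were 6.50, 6.34 and 6.61 at 25 kPa and 6.73, 6.54 and 6.39 at 97 kPa/HypOx, against 8.61, 7.37 and 6.84 at 97 kPa, and the highest of these is the array that stands apart. Without that array the differences were -0.62 and -0.55 and neither was called. The call at 25 kPa was also lost without any of the 25 kPa arrays (-1.19 to -1.05), and that at 97 kPa/HypOx in 13 of 15 fits with 1 array left out. IREG2, a transporter that moves metal into the vacuole, rose at 25 kPa (1.02, SE 0.26, adjusted p = 0.149), but was not called without root 97 kPa replicate 1 (0.73) or root 25 kPa replicate 3 (0.94). FIT, the master regulator of iron uptake, rose at 25 kPa (1.29, SE 0.25, adjusted p = 0.0700) with values of 5.80, 5.61 and 5.66, against 3.83, 4.60 and 4.76 at 97 kPa, and its call held with any 1 array left out. The control values of FIT lie near the low end of the scale.

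The root response minus the shoot response at 25 kPa was -1.49 (SE 0.35) for FER4, 1.12 (SE 0.28) for IREG2 and 1.30 (SE 0.27) for FIT, all called, with adjusted p = 0.0953, 0.127 and 0.0485 from limma. At 97 kPa/HypOx it was -1.24 for FER4 and called. In shoots FIT and IREG2 lay near the low end of the scale, with group means of 3.97 to 4.101 for FIT and 4.196 to 4.33 for IREG2, where the lowest value of any probe set was 3.31. Without root 97 kPa replicate 1, the array that stands apart, FIT was at 1.02 and still called (adjusted p = 0.0923 from limma), while FER4 (-0.99 at 25 kPa and -0.74 at 97 kPa/HypOx) and IREG2 (0.82) were not. For FER1 and FER4 the term was negative, with FER1 higher in treated shoots and FER4 lower in treated roots than in their controls. Of 14 genes of iron storage and efflux 5 have a named probe set, all through the study's tables. In roots 1 rose and 1 fell at 25 kPa and 1 fell at 97 kPa/HypOx, and in shoots 1 rose, at 50 and 25 kPa and at 97 kPa/HypOx, and it was FER1 each time. YSL6, a metal transporter of the chloroplast, ran from -1.25 to -0.75 in roots with no call.

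VTL5, a vacuolar iron transporter-like protein, differed from 97 kPa by 0.79 to 1.27 in roots and by -0.55 to 0.089 in shoots, and none of these comparisons with 97 kPa was called. Its root response minus its shoot response was called in 4 atmospheres, at 1.28 at 50 kPa, 1.67 at 25 kPa, 1.42 at 50 kPa/NormOx and 1.34 at 97 kPa/HypOx. The unadjusted p from limma was 0.00702, 0.000811, 0.00427 and 0.00790, and the adjusted p was 0.482, 0.151, 0.499 and 0.678. At 50 kPa/NormOx 0.49% of all probe sets were called for this term, and no member was. VTL5 had root values of 4.77, 5.04 and 6.03 at 97 kPa, the lowest being the array that stands apart. Without it the term was called at 25 kPa (1.42) and not at 50 kPa (1.03), 50 kPa/NormOx (1.16) or 97 kPa/HypOx (1.08).

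Of 26 genes of iron uptake and deficiency 5 have a named probe set, and FIT at 25 kPa in roots was the only call in either tissue. FIT is also the 1 of the 5 that is named only through the study's tables of called genes. Of the 4 that the platform annotation names none was called. The transcription factors BHLH101, PYE and ILR3 stayed between -0.11 and 0.043, -0.16 and 0.15, and -0.32 and -0.013 in roots. BHLH101 had root means of 3.62 to 3.77, near the low end of the scale. F6'H1, an enzyme of coumarin synthesis, ran from -0.00080 to 0.72 in roots, and its shoot differences lay between 0.10 and 0.85. The median of the 5 in roots at 25 kPa was 0.096, and that of the 4 without FIT 0.041, beside 0.0056 over all probe sets.

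**Figure D4:**
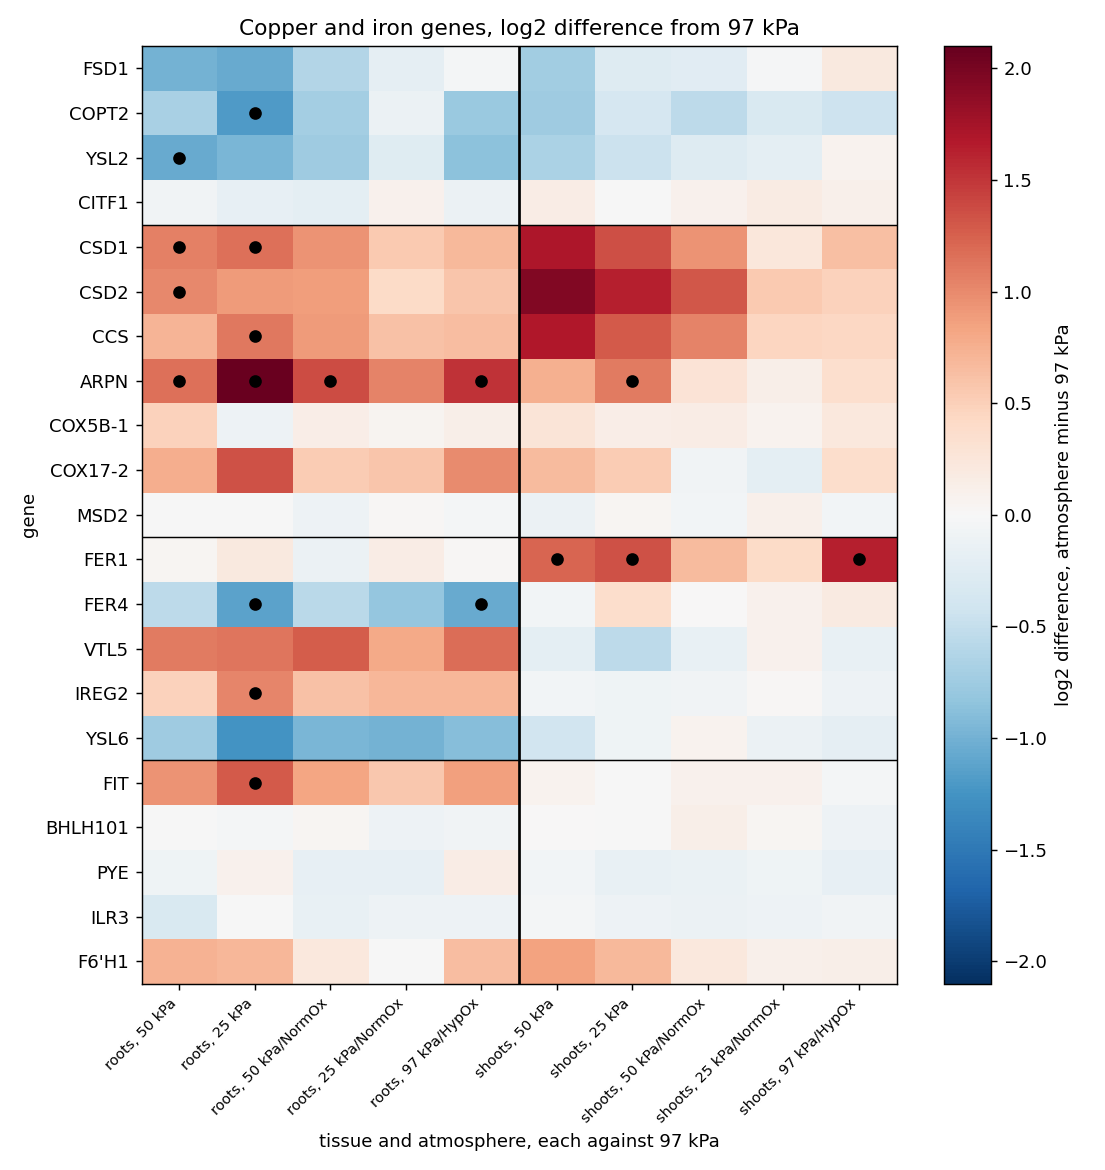
Log2 difference from 97 kPa (colour) of FSD1, COPT2 and FER1 and the other named copper and iron genes (rows) in each tissue and atmosphere (columns). Black dots mark calls, and horizontal lines separate copper deficiency genes, copper proteins with MSD2, iron storage and efflux genes, and iron uptake genes. In the root columns CSD1, CSD2, CCS and ARPN are red, while FSD1, COPT2 and YSL2 run from blue to nearly white. There FSD1 is at -0.045 at 97 kPa/HypOx and -0.18 at 25 kPa/NormOx, where COPT2 is at -0.13. FER1 is darker in shoots than in roots, with calls at 1.22, 1.34 and 1.63. The uncalled CSD2 is darker still in shoots at 50 kPa, at 1.94.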

How the data were processed

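The authors hybridized RNA to Affymetrix ATH1 arrays, of which 33 (15 root, 18 shoot) were used here, and deposited log2 values after RMA normalization. The submitters' processing notes name RMA and Affymetrix Expression Console. Sorted values were nearly the same for all root arrays and for all shoot arrays, but not between tissues. Versions are not given in the sources used here, and replicates were not pooled. Array data have no read depth, and the number of arrays limits the precision.

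As in the study's methods, probe sets of mitochondrial and plastid genes (101 of 22746) were removed. R 4.3.3 with limma 3.58.1 fitted 1 mean per group in each tissue (lmFit, contrasts.fit, eBayes), with no block, and 1 fit of all 33 arrays for root minus shoot. The threshold of an unadjusted p under 0.01 with at least a 2-fold difference is the study's. Adjusted p-values are Benjamini-Hochberg over 22645 probe sets, and the unadjusted ones are limma's moderated p-values from the fit across all of them. A single gene is named for 13513 probe sets by the platform annotation, several for 503, and the study's tables name 213 more, while 8517 have no name here. A listed gene with no named probe set may still be on the array. Named genes are the 3 members, listed genes called in any atmosphere, and up to 4 uncalled ones per list, highest in mean level. Correlations of deviations used 100000 permutations within groups (NumPy 2.4.6). The fit was tested on simulated data. For 1 shoot array at 50 kPa the title (2) and the description (3) give different replicate numbers, and the title's was used. Members and lists were chosen with earlier results of these data known. Alternatives were a filter on low values, organelle probe sets kept, joint quantile normalization, trend, robust prior, array weights, the contrast's groups alone, a replicate block and each array left out.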

Additional observations from a re-analysis of the deposited data

Results flagged for a closer look

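In the group of 4 shoot arrays at 50 kPa/NormOx, IREG2 replicate 2 stood apart from the other 3, with a log2 value of 4.44. It was the 1 such case in 28 genes tested in that group, and chance gives about 1 in 20.

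The response in roots differed from that in shoots for FER1 at 50 kPa (root minus shoot -1.17), 25 kPa (-1.13) and 97 kPa/HypOx (-1.61), and for FER4 at 25 kPa (-1.49) and 97 kPa/HypOx (-1.24). IREG2 (1.12) and FIT (1.30) differed at 25 kPa, both with the higher response in roots and both near the low end of the scale in shoots, with group means of 3.97 to 4.101 for FIT and 4.196 to 4.33 for IREG2. VTL5 differed at 50 kPa (1.28), 25 kPa (1.67), 50 kPa/NormOx (1.42) and 97 kPa/HypOx (1.34). Among tissue markers, the green tissue genes PSAD1 (1.08 at 25 kPa) and PSBO1 (1.03 at 25 kPa and 1.13 at 97 kPa/HypOx) and the root gene PYK10 (-1.28 at 97 kPa/HypOx) differed too. All of these genes but PYK10 are named only through the study's tables of genes called on these arrays. Of all probe sets, 0.344% were called for root minus shoot at 50 kPa and 0.817% at 25 kPa. The share was 0.49% at 50 kPa/NormOx and 0.433% at 97 kPa/HypOx. These 15 differences were tested in limma's fit of all arrays, and FIT alone had an adjusted p under 0.05.

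Without root 97 kPa replicate 1, the array that stands apart, those of VTL5 (1.42) and FIT (1.02) at 25 kPa and of PYK10 (-1.24) were still called. Those of FER4 (-0.99 and -0.74), IREG2 (0.82), PSAD1 (0.91), PSBO1 (0.75 and 0.84) and the other 3 of VTL5 (1.03, 1.16 and 1.08) were not.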

How the results depend on the processing

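The 58 results with a test, 21 of them called, kept their direction and call under an intensity trend, a robust prior and with organelle probe sets kept. With low values filtered, ARPN in shoots at 25 kPa gave no value, since its probe set was removed, and the other 57 kept theirs. With all arrays quantile normalized together 1 call was lost, that of IREG2 at 25 kPa in roots (0.98). Array weights were estimated gene by gene, since limma's default method did not converge. With them 3 results became called, among them FSD1 in roots at 25 kPa (-1.23) and at 50 kPa (-1.27). The weights also lost 3 calls of ARPN and FER4 in roots. FER1 in roots turned sign at 50 kPa (-0.16), 25 kPa/NormOx (-0.021) and 97 kPa/HypOx (-0.12), all uncalled. With only the contrast's groups in the fit, which leaves fewer arrays, COPT2 in roots at 25 kPa was not called (-1.18, unadjusted p 0.0248 from limma), nor were 7 other results on ARPN, CSD1, FER4 and IREG2.

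With any 1 array left out, the difference at 25 kPa in roots ran from -1.62 to -0.56 for FSD1 and from -1.63 to -0.89 for COPT2. For FER1 in shoots it ran from 0.98 to 1.59 at 50 kPa, 1.21 to 1.52 at 25 kPa and 1.56 to 1.71 at 97 kPa/HypOx, and for root minus shoot from -1.54 to -0.93, -1.32 to -1.01 and -1.76 to -1.51. Without shoot 50 kPa replicate 3 the 50 kPa difference between tissues was not called (-0.93), nor was that at 25 kPa without root 97 kPa replicate 2 (-1.03), root 25 kPa replicate 1 (-1.02) or shoot 25 kPa replicate 1 (-1.01). Small uncalled differences changed sign: FER1 in roots at 50 kPa (-0.10 to 0.16) and 97 kPa/HypOx (-0.12 to 0.13), FSD1 in roots at 97 kPa/HypOx (-0.18 to 0.12), and FSD1 in shoots at 25 kPa (-0.41 to 0.030) and 25 kPa/NormOx (-0.12 to 0.065).

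In a paired fit, with a replicate block by number, FSD1 in roots at 25 kPa/NormOx turned to 0.058, and no call of a result given here changed. Over all probe sets the block moved the count called from 14 to 28 in roots at 50 kPa/NormOx and from 9 to 54 at 25 kPa/NormOx. The labels do not say that a number ties arrays of different atmospheres to each other. The correlation of same-numbered deviations ran from -0.41 to 0.70, and was over 0.1 for every pair in 0 of 9 comparisons. With 3 pairs, in 0 of 7 did every array correlate best with its own number. Leaving out shoot 50 kPa replicate 2 with the outlying shoot array, chosen after seeing the data, changed no call or direction among 19 shoot results.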
